A study of Mus musculus with 3 samples.

Results

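Genes that encode VEGF ligands, their receptors and a cofactor of VEGF-C, 10 in all, were followed in the cells of the mouse marrow niche. They are the ligands Vegfa, Vegfb, Vegfc and Vegfd, the receptors Flt1, Kdr and Flt4, the co-receptors Nrp1 and Nrp2, and Ccbe1. They were taken by symbol, and all 10 were found among the 31053 genes of the count files. The study sequenced 3 single-cell libraries of tibial marrow from C57Bl/6JCrl mice, all given tamoxifen by gavage. WT came from wild-type mice and FLOX from mice of genotype Vegfc flox/flox, with no Cre named. VC came from Cdh5CreERT2;Vegfc flox/flox mice, in which a tamoxifen-activated Cre is driven by the promoter of the endothelial gene Cdh5 (VE-cadherin). The question the genotypes address is what changes in the niche when Vegfc is deleted. Endothelium was marked by an antibody against VE-cadherin given into the vein, and the stains were for CD45, Ter119 and LepR. Each genotype was 1 library, so nothing below tests a genotype. The sources used here give neither the age nor the number of mice behind each library.

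VEGF ligands are secreted dimers that bind receptor tyrosine kinases on endothelium. VEGF-A binds VEGFR1 (Flt1) and VEGFR2 (Kdr), VEGF-B and placental growth factor bind VEGFR1, and VEGF-C and VEGF-D bind VEGFR3 (Flt4) and, once fully cleaved, VEGFR2. VEGF-C is secreted as a precursor that ADAMTS3 cleaves with the help of the extracellular protein CCBE1, and neuropilins (Nrp1, Nrp2) hold ligands next to the kinases. VEGFR3 is best known for growth of lymphatic vessels, and it is also present on the sinusoids of marrow.

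RefSeq start sites were matched for 9 of the 10 genes. The sequence just upstream is shown for Vegfc, the ligand that was floxed, and for Flt1 and Kdr, receptors whose levels separate stroma from endothelium by more than 6 log2 units below. All are GRCm38.p6, 5′ to 3′ on the gene's own strand, cut to the bases outside annotated gene bodies. Vegfc is the 250 bases at chr8:54077282-54077531 on the plus strand, Flt1 the 250 bases at chr5:147726012-147726261 on the minus strand, and Kdr the 247 bases at chr5:75978459-75978705 on the minus strand. Capitals mark matches on either strand to the GC box GGGCGG, the TATA motif TATAAA, or the ETS cores CCGGAA and AGGAAG.
Vegfc: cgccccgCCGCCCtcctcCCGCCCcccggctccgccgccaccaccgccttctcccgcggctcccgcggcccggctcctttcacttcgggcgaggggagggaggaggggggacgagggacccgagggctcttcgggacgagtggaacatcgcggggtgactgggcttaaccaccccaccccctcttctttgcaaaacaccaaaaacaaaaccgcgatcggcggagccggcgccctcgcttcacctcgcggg
Flt1: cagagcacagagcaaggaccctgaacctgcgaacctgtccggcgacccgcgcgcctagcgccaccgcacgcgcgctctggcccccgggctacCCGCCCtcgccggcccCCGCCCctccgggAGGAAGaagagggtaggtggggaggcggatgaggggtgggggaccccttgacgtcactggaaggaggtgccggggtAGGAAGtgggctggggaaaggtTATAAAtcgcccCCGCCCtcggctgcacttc
Kdr: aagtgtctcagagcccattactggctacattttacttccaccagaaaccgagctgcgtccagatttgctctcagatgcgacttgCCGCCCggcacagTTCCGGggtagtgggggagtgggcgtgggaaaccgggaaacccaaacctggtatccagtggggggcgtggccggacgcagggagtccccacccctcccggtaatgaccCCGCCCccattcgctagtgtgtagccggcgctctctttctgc
The Vegfc window held 2 GC boxes and none of the other motifs, and 71.6% of its bases were G or C. The Flt1 window held 3 GC boxes, 1 TATAAA and 2 AGGAAG, and the Kdr window 2 GC boxes and 1 CCGGAA. No match overlapped another in these windows. Among 32851 RefSeq promoter windows of 250 bases, GGGCGG occurred in 32.74%, TATAAA in 12.37%, CCGGAA in 12.03% and AGGAAG in 29.48%, so each motif is common. A match is a run of letters and not a binding site.

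The genes lie apart in the genome, with coordinates from GENCODE M21 on GRCm38. Vegfc spans chr8:54077606-54187096 on the plus strand and Nrp1 chr8:128358604-128503363 on the plus strand. Flt1 spans chr5:147561604-147726011 and Kdr chr5:75932827-75978458, both on the minus strand. Flt4 lies on the plus strand at chr11:49609263-49652739, Vegfa on the minus strand at chr17:46016993-46032369, Vegfb on the minus strand at chr19:6982473-6987651 and Vegfd on the plus strand at chrX:164373378-164402650. Nrp2, on the plus strand at chr1:62703285-62818695, overlaps the antisense gene Gm29083. The sources used here do not say whether the counting used strand, so reads of that pair may be exchanged.

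Counts are UMIs (unique molecular identifiers, 1 per captured transcript). A barcode was kept as a cell if it had 500 genes or more and no more than 10% of its UMIs from mitochondrial genes, which left 12790 of 15624. LepR stromal cells were those with at least 50 Cxcl12 UMIs, at least 1 of Lepr or Adipoq and at most 2 of Cdh5. Endothelial cells had at least 1 Cdh5 UMI and fewer than 50 of Cxcl12. They were called sinusoidal with at least 2 Stab2 UMIs, arterial with at most 1 Stab2 UMI and at least 2 of Sox17, Sema3g, Fbln2 and Gja4 detected, and other endothelial otherwise. This gave 264 WT, 1107 FLOX and 466 VC LepR stromal cells and 2992, 3200 and 1643 sinusoidal cells. There were 58, 189 and 89 arterial cells and 146, 192 and 108 other endothelial cells. None of the 10 genes was used to choose a cell. Libraries held 37361779 to 61758462 UMIs, and kept cells had medians of 8702 to 10917. The libraries shared 10, 6 and 5 barcodes pairwise (WT with FLOX, WT with VC, FLOX with VC), of which 7, 5 and 3 were kept.

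Markers were checked against the names of the classes. Summed LepR stromal markers reached 31876 to 37112 CPM (UMIs per 1000000 of the class total) in the stromal class and 196 to 222 in sinusoidal cells. The stromal class held 22.7 to 46.3 CPM of 8 summed endothelial markers. The arterial class of WT stood apart. Its 8 arterial markers summed to 2688 CPM against 4636 in FLOX and 4607 in VC, and 7 of 8 were detected, with Gja5 at 0. Neutrophil markers summed to 360 CPM in WT arterial cells and to 25620.2 and 25784 in FLOX and VC. The other endothelial class held 13995 to 59621 CPM of neutrophil markers against 1774 to 2133 of endothelial markers, so it is named by its rule only. Lymphatic markers were near 0 in sinusoidal cells, with Lyve1 at 0.128 to 0.198 CPM and Prox1 at 4.24 to 8.16.

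**Figure D1:**
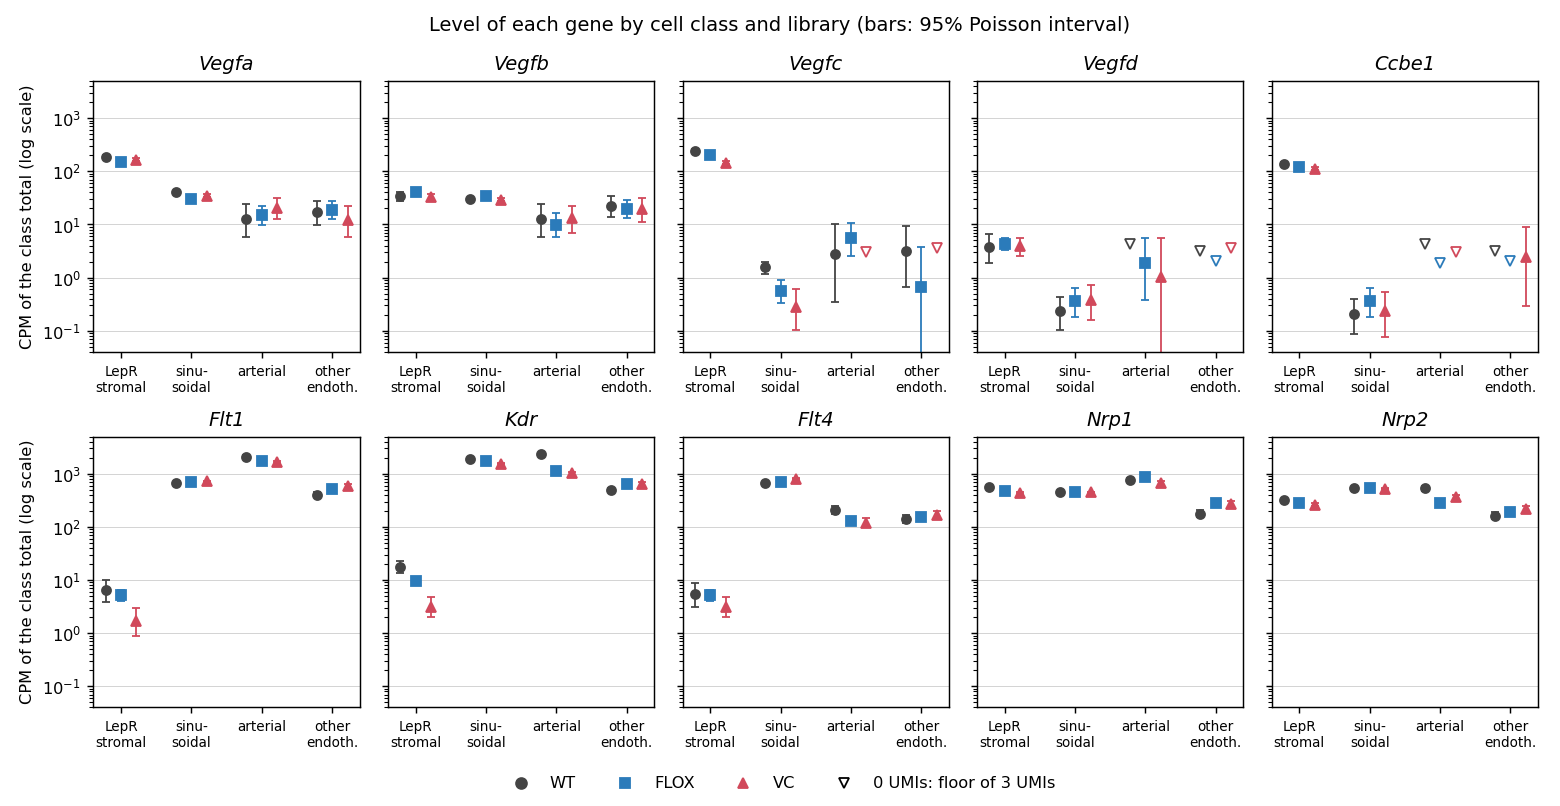
Level of each of the 10 genes in CPM of the class total (log axis), by cell class on the x axis and library by colour, with 95% Poisson intervals. Vegfc and Ccbe1 stand above 100 CPM in LepR stromal cells and below 6 CPM in every endothelial class, while Flt1, Kdr and Flt4 have the opposite order.

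Vegfc, the ligand of VEGFR3, was a gene of the LepR stroma. Stromal cells held 246 CPM in the WT library, 201 in FLOX and 145 in VC, with 95% intervals of 229 to 265, 193 to 209 and 136 to 154. Sinusoidal cells held 1.56, 0.562 and 0.279 CPM, from 61, 17 and 6 UMIs. Every stromal sum lay far above every sinusoidal sum, by 158-fold in WT, 358-fold in FLOX and 520-fold in VC. In edgeR's quasi-likelihood fit over the 12 sums of 4 classes in 3 libraries, with the library as a block, the difference was 7.96 ± 0.30 log2 units (SE, n = 3 libraries, Benjamini-Hochberg adjusted p = 1.73e-09). Arterial cells held 2, 9 and 0 Vegfc UMIs, and the stromal level was 87.5-fold higher in WT, 35.8-fold in FLOX and at least 47.5-fold in VC, where 0 is set at a floor of 3 UMIs. The arterial and sinusoidal levels did not pass the test of their difference (1.94 ± 0.76 log2, edgeR adjusted p = 0.0915). Without WT they did (2.71 log2, edgeR adjusted p = 0.02625), but on 9 arterial UMIs in FLOX and 0 in VC. Of all Vegfc UMIs in kept cells, 85.2% in WT, 93.2% in FLOX and 97.4% in VC were in LepR stromal cells. These shares move with the mix of cells sorted, since stroma made up 6.11%, 19.3% and 17.0% of kept cells and the gates are not known here.

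Most stromal cells contributed. A Vegfc UMI was found in 81.8% of WT, 78.6% of FLOX and 70.8% of VC stromal cells, at median depths of 10654, 11315 and 13581.5 UMIs. Thinned to 3000 UMIs per cell, which left out 7, 8 and 3 cells, the shares were 45.9% (95% Clopper-Pearson interval 39.7 to 52.2), 43.3% (40.4 to 46.3) and 31.7% (27.5 to 36.2). Plasma cell-like cells, which serve as a background of free RNA, held no Vegfc UMI in 21, 251 and 82 cells with median depths of 13021, 19573 and 27722.5 UMIs. With a count of 0 set at the floor of 3 cells, those zeros allow shares of up to 14.3%, 1.195% and 3.66%. A stromal cell held a median of 2, 2 and 1 Vegfc UMIs and at most 18. All intervals cover counting error only.

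Vegfa, the main ligand of VEGFR2, was spread more widely. Its level was 188 CPM in WT (173 to 204), 150.4 in FLOX and 167 in VC stromal cells, against 41.0, 30.5 and 35.0 in sinusoidal cells and 12.7, 15.0 and 20.4 in arterial cells. The classes kept this order in each library with no overlap between them. The arterial Vegfa levels rest on 9, 24 and 20 UMIs. Stroma exceeded sinusoids by 2.25 ± 0.13 log2 and arterial cells by 3.49 ± 0.18 (edgeR adjusted p = 2.723e-08 and 2.839e-08, n = 3 libraries), and arterial cells lay below sinusoids (log2 −1.23 ± 0.19, edgeR adjusted p = 0.0005869). Per 1000 UMIs of Adipoq, a gene also used to choose stromal cells, Vegfa counted 163, 115 and 139 in stroma. In sinusoidal cells it counted 27638, 11256 and 25931. Per 1000 UMIs of the neutrophil gene S100a8, it counted 134, 13.6 and 23.7 in sinusoidal cells and 0.412 to 0.508 in neutrophil-like cells. The part of stromal or neutrophil RNA in the sinusoidal Vegfa counts was not tested.

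Vegfb, a ligand of VEGFR1, came to 33.9, 41.0 and 33.0 CPM in the stroma of WT, FLOX and VC, and to 29.7, 33.6 and 29.4 in sinusoids. These ranges overlapped, and the difference of 0.23 ± 0.12 log2 did not pass the edgeR test (adjusted p = 0.1225); with DESeq2 the adjusted p was 0.04537. Arterial cells were lower, at 12.7, 9.97 and 13.2 CPM from 9, 16 and 13 UMIs, or −1.55 ± 0.19 log2 against sinusoids (edgeR adjusted p = 0.0001033). Vegfd, the other VEGFR3 ligand, was at 3.69, 4.32 and 3.88 CPM in stroma and 0.230 to 0.372 in sinusoidal cells. It was below the filter on low counts and was not tested.

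Ccbe1, the cofactor of VEGF-C cleavage, had the same class as its partner. Its stromal levels were 139, 121 and 113 CPM, with intervals of 126 to 153, 115 to 127 and 105 to 121. Sinusoidal cells held 0.205, 0.364 and 0.233 CPM. The stromal sums were 679-fold, 332-fold and 484-fold higher, a fitted difference of 8.83 ± 0.29 log2 (edgeR adjusted p = 5.711e-09, n = 3 libraries). No Ccbe1 UMI was found in any arterial sum, which makes stroma at least 32.9-fold, 64.6-fold and 36.9-fold higher. Per 1000 Adipoq UMIs, Ccbe1 counted 121, 92.6 and 94.0 in stroma and 138 (56.9 to 290), 134 (64.5 to 253) and 172 (52.1 to 450) in sinusoidal cells. These sinusoidal intervals held the stromal ratio of each library, and the part of stromal RNA in the few sinusoidal Ccbe1 UMIs was not tested.

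Vegfc and Ccbe1 shared the class but were not visibly linked cell by cell. At 3000 UMIs per cell, 30.4% of WT, 28.7% of FLOX and 28.1% of VC stromal cells held a Ccbe1 UMI, and 15.2%, 12.6% and 8.64% held both genes. Before thinning, Ccbe1 was found in 72.3%, 69.3% and 72.7% of stromal cells and in none of the plasma cell-like cells. Ccbe1 was found in 33.1%, 29.2% and 27.2% of cells with Vegfc and in 28.1%, 28.3% and 28.5% of cells without it. The share with Vegfc was higher in WT and FLOX and lower in VC.

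The kinase receptors had the opposite distribution. Kdr, the main signalling receptor for VEGF-A, stood at 1885, 1727 and 1551 CPM in sinusoidal cells of WT, FLOX and VC and at 17.8, 9.69 and 3.16 in stroma. Arterial cells held 2315, 1138 and 1024 CPM, with WT above its own sinusoidal level and FLOX and VC below theirs. Stroma lay below sinusoids (log2 −7.56 ± 0.52, edgeR adjusted p = 1.712e-07), and the arterial difference of −0.41 ± 0.39 log2 did not pass (edgeR adjusted p = 0.5047). Without the WT library, whose arterial class is the weakest by markers, that difference was −0.79 log2 with an edgeR adjusted p of 0.07515.

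Flt4, the receptor of VEGF-C and VEGF-D, was highest in sinusoids. It reached 671, 713 and 805 CPM there, 209.6, 129.6 and 120.1 in arterial cells, and 5.37, 5.22 and 3.16 in stroma. The classes did not overlap. Arterial cells were lower than sinusoids (log2 −2.40 ± 0.25, edgeR adjusted p = 3.763e-05) and stroma lower still (log2 −7.32 ± 0.32, edgeR adjusted p = 4.175e-09). Without WT, the arterial difference was −2.79 log2. Of all Flt4 UMIs in kept cells, 94.7% to 97.9% per library lay in sinusoidal cells, a share that also moves with the cells sorted.

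Flt1, a high-affinity receptor for VEGF-A that signals weakly and can act as a trap, was highest in arterial cells. Its level was 2097, 1773 and 1677 CPM there against 672, 713 and 725 in sinusoids and 6.38, 5.14 and 1.72 in stroma. The arterial excess was 1.27 ± 0.31 log2 (edgeR adjusted p = 0.01084, n = 3 libraries), and it did not pass without FLOX (1.38 log2, edgeR adjusted p = 0.1238) and passed without WT (1.07 log2, edgeR adjusted p = 0.01879). Stroma lay below sinusoids (log2 −7.38 ± 0.41, edgeR adjusted p = 2.87e-08). Thus, within endothelium, Flt1 and Flt4 had opposite orders, each called in its own direction. With cells holding haematopoietic UMIs left out, the arterial differences were 1.38 log2 for Flt1 and −2.31 log2 for Flt4.

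The small stromal counts of these receptors can be set against a pan-endothelial gene. Per 1000 Pecam1 UMIs, stromal cells held 1963, 1733 and 846 Kdr UMIs and sinusoidal cells 3033, 2876 and 2868. For Flt4 the values were 593, 933 and 846 in stroma and 1080, 1188 and 1489 in sinusoids. The stromal ratios were of the same order as the endothelial ones, with a lower value in each library. Counting intervals of the stromal Flt4 ratio (298 to 1140, 664 to 1310 and 457 to 1553) held the sinusoidal value in each library. For Kdr the WT interval (1213 to 3246) did too, while those of FLOX (1295 to 2335) and VC (457 to 1553) lay below the sinusoidal value. The part of endothelial RNA in the stromal counts was not tested further.

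The co-receptors were shared by both compartments. Nrp1, the VEGF-A co-receptor, stood at 557, 469.7 and 434 CPM in stroma, 459, 444 and 448 in sinusoids and 753, 852 and 677 in arterial cells. Stroma and sinusoids overlapped (0.12 ± 0.21 log2, edgeR adjusted p = 0.6419), and every arterial sum lay above every other. The arterial excess over sinusoids was 0.63 ± 0.21 log2 with an edgeR adjusted p of 0.04794, just past the threshold of 0.05. It was lost without FLOX (adjusted p = 0.3045), without VC (0.1023), without a filter on low counts (0.07399) and without the library block (0.05994). Nrp2, which binds VEGF-C, was at 320.1, 279 and 264 CPM in stroma, 535, 549 and 527 in sinusoids and 527, 282 and 365 in arterial cells. Stroma was below sinusoids (log2 −0.90 ± 0.22, edgeR adjusted p = 0.004432), with adjusted p of 0.05068 without FLOX and 0.05831 without VC. The arterial difference of −0.60 ± 0.22 log2 did not pass (edgeR adjusted p = 0.07717), and without WT it was −0.94 (edgeR adjusted p = 0.001951).

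**Figure D2:**
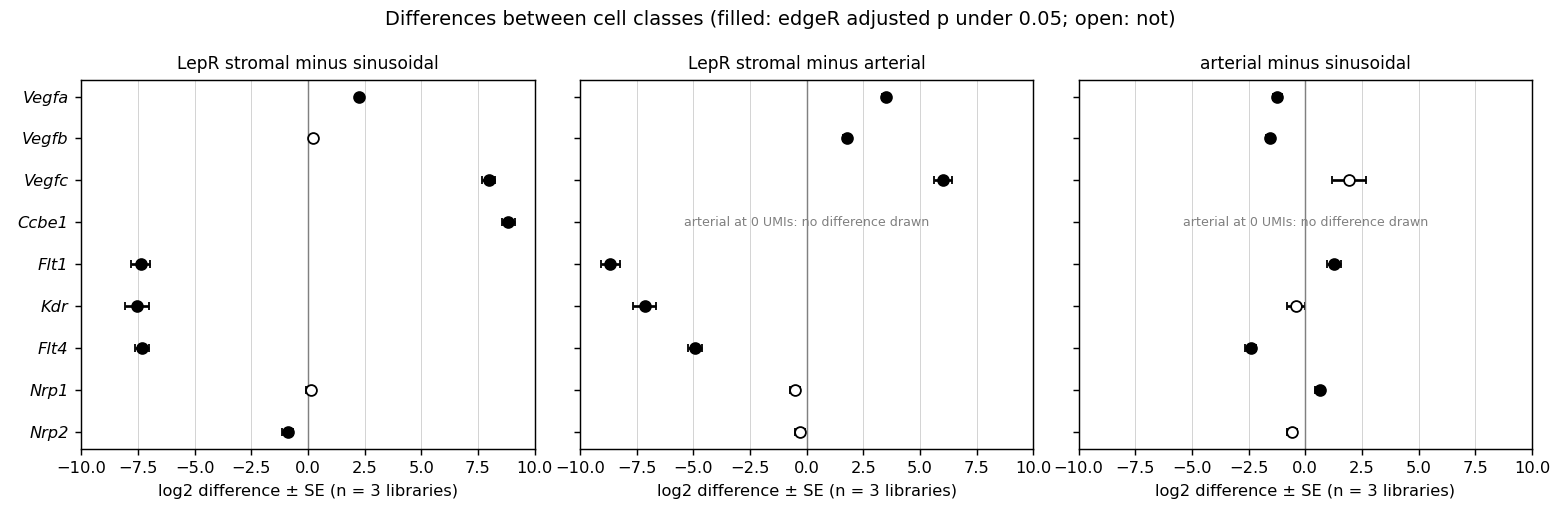
Fitted log2 difference ± SE (n = 3 libraries) for each gene tested, in the contrasts between cell classes; filled points have an edgeR adjusted p under 0.05. Vegfc and Ccbe1 lie near 8 to 9 in stroma against sinusoids, the 3 kinase receptors near −7, and Nrp1 and Vegfb near 0.

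Of the 10 genes, 9 passed the filter on low counts and entered the fit of 11844 genes. Vegfc and Ccbe1 passed it through stroma, where they are high, and Ccbe1 was at 0 UMIs in arterial cells. Their calls as higher in stroma, and the counts that include them, thus support nothing by themselves. In stroma against sinusoids, 3 were called higher (Vegfa, Vegfc, Ccbe1), as were 28.6% of all genes tested, and 4 lower (Flt1, Kdr, Flt4, Nrp2), as were 28.6%. In stroma against arterial cells, 4 were higher (with Vegfb added), against 26.2% of all genes, and 3 lower (Flt1, Kdr, Flt4), against 22%. In arterial cells against sinusoids, 2 were higher (Flt1, Nrp1), against 10.1%, and 3 lower (Vegfa, Vegfb, Flt4), against 13.5%. In the other endothelial class against sinusoids, 0 were higher, against 18.9%, and 6 lower, against 24.9%, and that class holds much blood-cell RNA. With cells holding haematopoietic UMIs left out, 2 of the 9 were called there. Calls over all genes fell as well, to 672 higher and 467 lower of 11455, from 2240 and 2944 of 11844. Counts over 9 genes are coarse, and the sizes say more. The 5 genes past 7 log2 units in stroma against sinusoids were Ccbe1, Vegfc, Kdr, Flt1 and Flt4.

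Sinusoidal cells carried the 3 kinase receptors together. At 3000 UMIs per cell, Kdr was found in 98.3% to 98.7% of sinusoidal cells per library, Flt4 in 81.7%, 85.1% and 86.3% of WT, FLOX and VC, and Flt1 in 75.6%, 79.2% and 80.4%. All 3 were found in 61.7%, 66.4% and 69.0% of sinusoidal cells and in 34.5%, 31.3% and 22.1% of arterial cells, where Flt4 limits the count with 36.2%, 34.6% and 23.3%. Plasma cell-like cells at the same depth held Kdr in 0%, 2.44% and 0%, and B lineage-like cells in 6.60%, 4.26% and 1.23%. Before thinning, Kdr was in 99.7% to 99.8% of sinusoidal cells at median depths of 7781 to 11106.5 UMIs, Flt4 in 96.9% to 98.2% and Flt1 in 93.1% to 96.2%. Thinning left out 83, 132 and 27 sinusoidal cells. Nrp1 and Nrp2 were found together in 55.8% to 56.5% of sinusoidal and 39.7% to 42.2% of stromal cells.

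The receptors differed among sinusoidal cells. Flt1 was lower in cells with at least 5 UMIs of Ackr1, a chemokine-binding receptor typical of venules, with 558, 638 and 686 CPM by library in the order WT, FLOX, VC, against 959.9, 862 and 871 in cells without Ackr1. Flt4 went the other way in each library, at 694, 729.8 and 836 with Ackr1 and 589, 629 and 752 without. The cells with Ackr1 were deeper, with medians of 13696, 10182 and 12387 UMIs against 9195, 6609 and 9852, and the part of depth in this was not tested. Cells with at least 10 UMIs of Cxcl9, an interferon-induced chemokine, showed the same pair of orders. Flt1 was 589, 568 and 673 CPM in them and 800.3, 766 and 855 in cells with none, while Flt4 was 709.9, 760.4 and 835 against 629, 684 and 747. The Cxcl9-high cells numbered 151, 78 and 914. They were deeper too, with medians of 17299, 11447 and 11865.5 UMIs against 9608.5, 7067 and 9048. Kdr moved less, at 1866, 1760 and 1504 with Cxcl9 and 1888, 1672 and 1641 without.

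In dividing sinusoidal cells (97, 90 and 33, with at least 2 UMIs of the division markers) each receptor made up a smaller share of all UMIs. Kdr was 1341, 1131 and 1028 CPM in them against 1915, 1766 and 1576 in non-dividing cells. Flt4 was 493, 416 and 613 against 676, 737 and 814, and Nrp1 was 366, 326 and 310 against 465, 451 and 454. Every dividing value lay below its own library's non-dividing value. Dividing cells held more UMIs, with medians of 19416, 16910.5 and 16730 against 10934, 7629 and 10548. A lower share need not mean fewer receptor UMIs per cell. Cells with at least 2 Kit UMIs had less Flt1, at 471, 489 and 529 CPM against 711, 743 and 756 in cells with none. These splits compare cells within a library and carry no test.

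**Figure D3:**
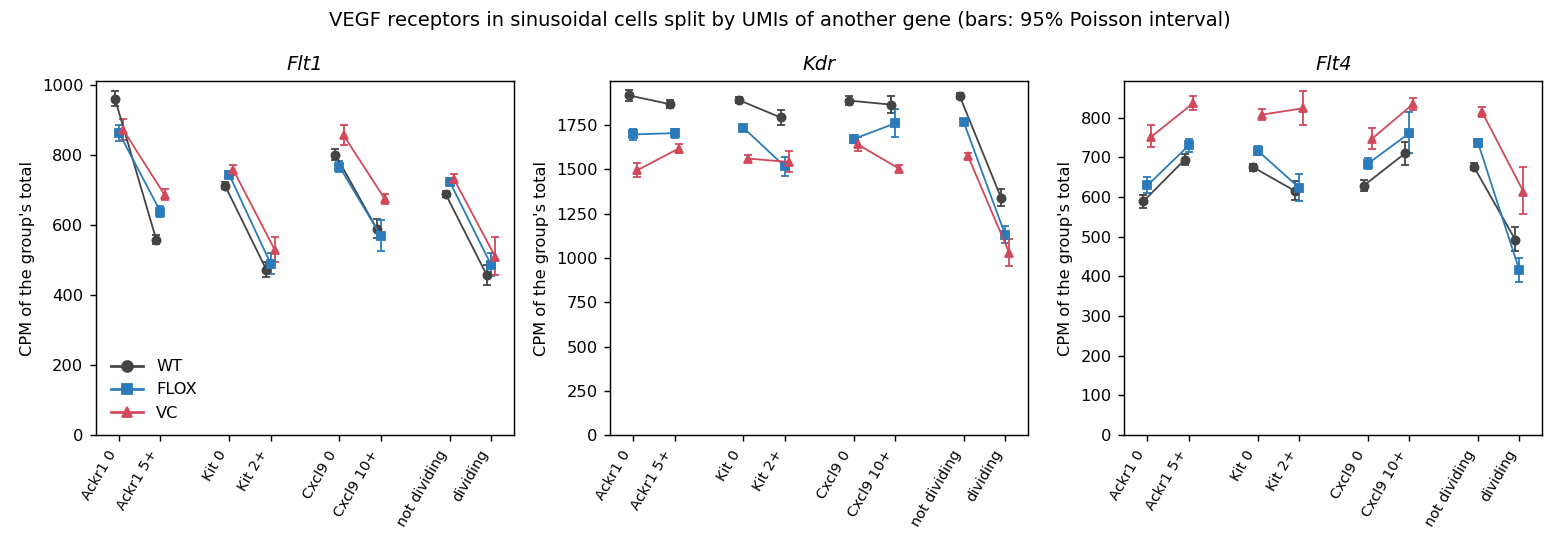
Level of the VEGF receptors in CPM, in sinusoidal cells split by UMIs of Ackr1, Kit, Cxcl9 or division markers, by library, with 95% Poisson intervals. Flt1 is lower and Flt4 higher in Ackr1-high and Cxcl9-high cells of each library, and dividing cells are lower for the 3 receptors.

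Between genotypes, the stromal level of Vegfc was lowest in VC. The ratio of VC to FLOX was 0.722 (0.671 to 0.777), VC to WT 0.589 (0.535 to 0.649) and FLOX to WT 0.816 (0.752 to 0.886). FLOX thus lay between WT and VC, and the step from WT to FLOX, neither of which has a named Cre, was itself outside counting error. Per 1000 Adipoq UMIs the order was the same, with values of 214 (197 to 232), 154 (148 to 160) and 121 (113 to 129). Vegfc did not reach the size used for genotypes, which asks for 1.5-fold against both other libraries and more than they differ from each other.

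In the 3 endothelial classes together, where the Cre is meant to act, Vegfc had 66, 27 and 6 UMIs in the order WT, FLOX and VC. The levels were 1.62, 0.81 and 0.258 CPM. The ratio of VC to FLOX was 0.318 (0.107 to 0.786), VC to WT 0.159 (0.056 to 0.365) and FLOX to WT 0.5002 (0.307 to 0.794). A Vegfc UMI was found in 63 WT, 27 FLOX and 4 VC endothelial cells, of 3196, 3581 and 1840, or 1.97%, 0.754% and 0.217% at median depths of 10938, 7600 and 10299.5 UMIs. At 3000 UMIs per cell the shares were 0.623%, 0.296% and 0%, with 145, 199 and 70 cells left out. B lineage-like cells held 1, 1 and 0 Vegfc UMIs, or 0.312%, 0.645% and 0% of cells before thinning. Their median depths were 4788, 3323 and 3832 UMIs. The WT and FLOX shares rest on 1 UMI each in shallower cells, so no match or difference to endothelium can be read from them. The VC zero, of 95 cells, allows up to 3.16% by the same floor. Cells outside the 4 classes that no marker list named (117, 303 and 97) held 4, 8 and 5 Vegfc UMIs. Their totals were 357559, 2814448 and 581583 UMIs, so their Vegfc level was above that of endothelium in each library. Only 1, 2 and 1 of the Vegfc UMIs lay in endothelial cells that also held Adipoq. Per 1000 Adipoq UMIs, the endothelial classes together held 1138, 307 and 194 Vegfc UMIs by library, with intervals of 787 to 1648, 192 to 477 and 66.0 to 471. The WT and FLOX intervals lie above the stromal ratios of 214 and 154, and the VC interval holds the stromal 121. In sinusoidal cells alone the ratios were 1052 (722 to 1533), 207 (115 to 353) and 207 (70.2 to 507), and there the FLOX interval holds the stromal value too. FLOX arterial cells held 9 Vegfc UMIs beside 1 of Adipoq. The part of stromal RNA in the endothelial Vegfc counts was not tested. The sources used here do not name the exon flanked by loxP, and 3′ tags can be read from a transcript that lacks an upstream exon, so these counts may not report the deletion.

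**Figure D4:**
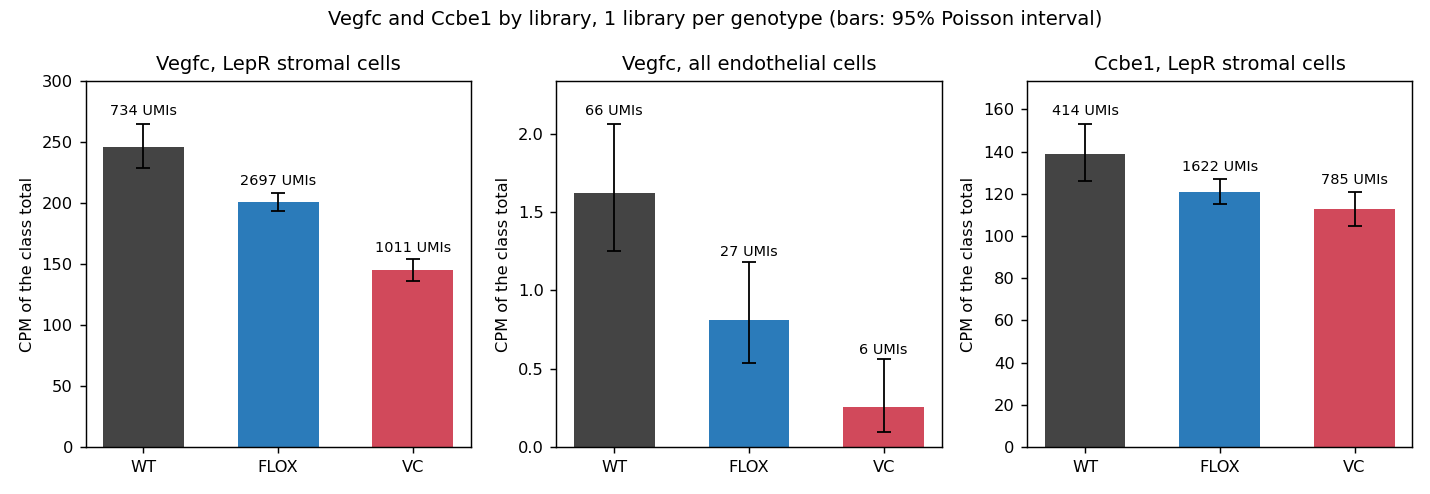
Vegfc and Ccbe1 in CPM of the class total by library (1 per genotype), with 95% Poisson intervals, in LepR stromal and in endothelial cells. Stromal Vegfc is at 246, 201 and 145 in the order WT, FLOX, VC, and endothelial Vegfc is at 1.62, 0.81 and 0.258.

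Stromal Vegfa in VC was 0.885 of WT and 1.107 of FLOX, on either side of 1. FLOX was the lowest library for Vegfa, at 0.799 of WT in stroma (0.727 to 0.879) and 0.744 in sinusoids (0.686 to 0.808). These steps between the libraries without a named Cre are about as large as that of stromal Vegfc. Stromal Ccbe1 in VC was 0.811 of WT (0.719 to 0.916) and 0.932 of FLOX (0.855 to 1.016), the latter within counting error. Stromal Nrp1 fell in the same order as Vegfc, with VC at 0.779 of WT and 0.924 of FLOX (0.884 to 0.965). FLOX was at 0.843 of WT. Nrp2 did so too, at 0.823, 0.946 (0.894 to 1.000) and 0.871 for these ratios. So did Flt1, at 0.270, 0.335 and 0.806, on 19, 69 and 12 UMIs in WT, FLOX and VC. In sinusoids, Flt4 in VC was 1.1998 of WT (1.177 to 1.223) and 1.129 of FLOX (1.107 to 1.152), while FLOX was 1.062 of WT. Kdr went the other way, with VC at 0.823 of WT (0.812 to 0.834) and 0.898 of FLOX (0.886 to 0.911), and FLOX at 0.916 of WT. For both receptors FLOX lay between WT and VC. Sinusoidal Flt1 in VC was 1.078 of WT and 1.017 of FLOX (0.997 to 1.039).

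Against the size of 1.5-fold, 1 of 7 measured genes stood out in VC stroma, where 1.43% of all 8626 genes did in either direction and 0.51% as lower. It was Kdr, whose stromal levels of 17.8, 9.69 and 3.16 CPM rest on 53, 130 and 22 UMIs. Their mean of 10.2 CPM passes the minimum of 10 CPM only through WT, where Kdr is high, so the count of 1 supports nothing by itself. Its ratio was 0.178 of WT (0.103 to 0.297) and 0.326 of FLOX (0.198 to 0.515). Stromal endothelial markers were lowest in VC too, at 22.7 CPM against 46.3 and 41.0, and Kdr per 1000 Pecam1 UMIs was 846 against 1963 and 1733. With 0 Cdh5 UMIs and at least 100 of Cxcl12 in stromal cells, Kdr was at 10.9, 5.67 and 3.36 CPM, under the minimum on its mean. VC was then 0.309 of WT and 0.592 of FLOX, still lowest. In sinusoids 0 of 7 did (1.73% of all genes), in arterial cells 0 of 6 (5.36%), and in other endothelial cells 0 of 7 (14.5%). Over all endothelial cells 0 of 7 did (1.72%). In arterial cells WT was the library that stood apart, with Kdr and Flt4 higher there than in both others, as were 6.24% of all genes in WT.

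**Figure D5:**
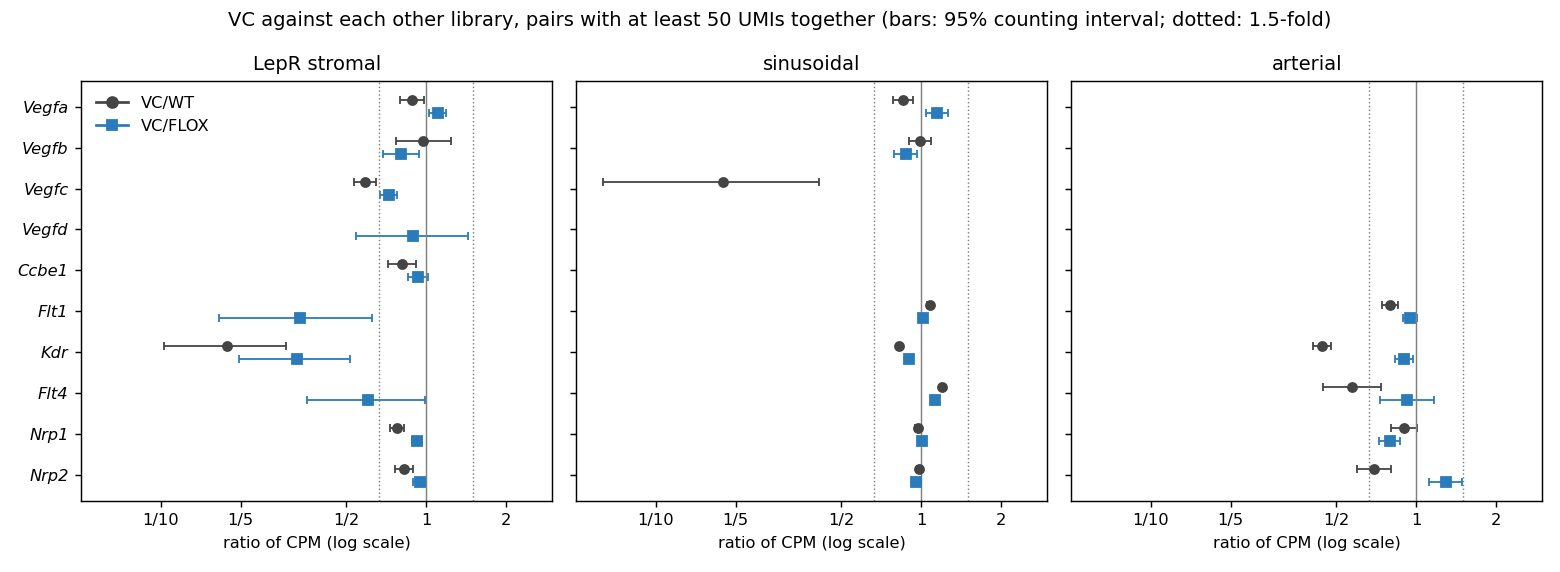
Ratio of CPM in VC to WT and to FLOX (log axis) for each gene with at least 50 UMIs in the pair, by cell class, with 95% counting intervals and dotted lines at 1.5-fold. Stromal Vegfc lies at 0.589 and 0.722, stromal Kdr at 0.178 and 0.326, and the sinusoidal receptors between 0.823 and 1.1998.

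The wider pathway was read from 7 lists, whose counts in stroma against sinusoids stand beside 28.6% of all genes called higher and 28.6% lower. Of 9 tested genes around VEGF-C and VEGF-D processing, 4 were higher in stroma than in sinusoids (Adamts2, Pcsk5, Adamts14, Furin) and 4 lower (Plau, Pcsk6, Ctsd, Pcsk7), with a median of −0.50 log2 against 0.00 over all genes. Adamts2, a relative of the VEGF-C protease, stood at 389, 393 and 391 CPM in stroma and 0.486, 1.22 and 0.512 in sinusoids. Adamts3, the protease that works with CCBE1, was at 2.01, 2.38 and 3.88 CPM in stroma and too low to test. In sinusoids it counted 12, 24 and 57 UMIs, or 0.307, 0.793 and 2.65 CPM, highest in VC. Of 8 other ligands and decoys, 7 were higher in stroma and 0 lower, with a median of 3.55 log2. Pgf (placental growth factor), a ligand of VEGFR1, was at 72.1, 76.7 and 58.0 CPM in stroma and 0.102, 0.562 and 0.326 in sinusoids (7.74 ± 0.39 log2). Spp1 (9.32 log2) and Esm1 (8.72 log2) had the largest differences of that list, and Esm1 is also one of the markers of the stromal class.

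Class 3 semaphorins, which compete for neuropilins, were endothelial. All 3 tested members were lower in stroma than in sinusoids, with a median of −6.28 log2. Sema3a was sinusoidal, at 451, 536 and 660.02 CPM against 1.41, 8.73 and 6.11 in arterial and 8.72, 4.17 and 2.01 in stromal cells (arterial against sinusoidal −6.61 ± 0.49 log2, edgeR adjusted p = 3.18e-06). Sema3g was used to choose arterial cells and is no finding there. Receptor partners and phosphatases had 7 of 17 higher and 9 lower in stroma against sinusoids, and signal relay genes 5 of 14 higher and 8 lower. VEGF response genes had 7 of 17 higher and 6 lower, and hypoxia genes 3 of 11 higher and 4 lower, with medians of 0.07 and −0.06 log2. Between arterial and sinusoidal cells, Efnb2, a ligand that takes part in VEGFR2 and VEGFR3 uptake and also an arterial marker, was at 423, 456 and 377 CPM against 44.2, 35.4 and 31.1. Nos3, the endothelial nitric oxide synthase, was at 42.2, 97.2 and 70.2 CPM against 22.7, 24.7 and 21.6 (1.47 ± 0.20 log2). In that contrast, where 10.1% of all genes were higher and 13.5% lower, 2 of 9 processing genes were higher and 3 lower, and 2 of 8 other ligands and decoys were higher and 0 lower. Of 17 partners 3 were higher and 3 lower, of 14 relay genes 4 and 1, of 17 response genes 3 and 3, and of 11 hypoxia genes 3 and 3. With lists this short, most of these counts are within a few genes of the share over all genes. Cdh5, counted among the partners, was used to choose cells. Between genotypes, list genes were also held to 1.5-fold in VC against both other libraries. In stroma 1 of 14 response genes was lower, Spry4, a feedback inhibitor of receptor kinases (72.1, 86.5 and 48.1 CPM). There 44 of all 8626 genes were lower. In sinusoids 1 of 5 processing genes was lower, Pcsk6, a proprotein convertase (11.5, 11.8 and 7.31 CPM), beside 25 of all 8309 genes. In arterial cells 2 of 12 response genes were higher in VC, Egr3 (26.7, 26.8 and 49.9 CPM) and Spry1 (22.5, 24.9 and 43.8 CPM). They rest on 16 to 49 UMIs a library, and 147 of all 7279 genes were higher there. In other endothelial cells 1 of 3 other ligands (Spp1), 1 of 15 partners (Plxna2), 1 of 11 relay genes (Gab1) and 1 of 11 response genes (Dusp6) were higher in VC. There 136 of all 7254 genes were higher. Lower in VC were 1 of 11 relay genes (Akt1) and 1 of 8 hypoxia genes (Pgk1), beside 919 of all genes.

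The genes most like each member were ranked by Pearson's r of log2(CPM + 1) over the 12 sums, among 9106 genes. These sums share 3 libraries and the class differences, so r is a description only. Vegfc was nearest to Cd1d1 (0.987), Tle2 (0.981) and Cnnm1 (0.979), and Ccbe1 to Srpx2, Wdr86 and Amy1. Vegfa was nearest to Asph (0.991), Wls and Tns3, and Vegfb to Prelp (0.975), Rarres2 and Itih5. Flt4 was nearest to Cyp4b1 (0.998), Stab1 and Aqp1, Kdr to Tek (0.997), Robo4 and Exoc3l2, and Flt1 to Clec1a (0.997), Pecam1 and Gpihbp1. Nrp1 was nearest to Ppfibp1 (0.983), Afap1 and Adamts9, and Nrp2 to Pttg1ip (0.987), Ankrd50 and Nid1.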

How the data were processed

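The deposited files hold UMI counts by gene and barcode, raw and whole, from 3′ libraries of 3 samples. Cell Ranger 2.1.1, Seurat 3.1 and mm10 are named in the submitters' processing notes, but 3.1.0 stands in the header of each matrix, so it is unclear which release counted the UMIs. The 10 genes, the cell classes, the splits and the pathway lists were chosen with earlier results of these data known.

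Sums of UMIs were taken for each class in each library and scaled to CPM. Class contrasts used edgeR 4.0.16 (R 4.3.3) on the 12 sums with TMM, filterByExpr and library as a block (6 residual degrees of freedom), called at an adjusted p under 0.05; DESeq2 1.42.0 was an alternative. The classes of 1 library come from the same preparation, and the 3 libraries differ in genotype, with the number of mice behind each not stated. The block takes up what a library shares over its classes. The p-values thus rest on how class differences vary between these libraries, with 1 estimate of that spread shared by the 4 classes. SEs are the absolute log2 difference divided by the square root of F. The fit was tested on simulated data. In the simulated stromal against sinusoidal comparison it recovered 57% of genes changed 2-fold and 100% of those changed 4-fold, with 10 false calls over 10523 genes. Apart from the changed genes, all simulated sums shared the sinusoidal profile, with independent noise and no effect of library. The number of false calls thus does not carry over to the real contrast, where 28.6% of genes were called each way.

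With 1 library per genotype, genotypes have no test: genes are called at 1.5-fold in VC against both other libraries, by more than those differ, among genes averaging 10 CPM or more with 50 UMIs or more. Sums carry exact Poisson and shares exact Clopper-Pearson 95% intervals, and zeros are set at 3 UMIs or cells, which for shares is lower than the exact upper bound. For shares, cells were thinned to 3000 UMIs. No doublet caller was run; settings without the deepest 5% of cells and without cells holding at least 5 haematopoietic UMIs stand in for one. Blood-cell types are named "like" from markers, by a rule set after the data had been seen. All 10 genes are named, and up to 4 genes of a pathway list by size, except where a count of 5 or fewer is spelled out. Python 3.11.15, numpy 2.4.6, scipy 1.17.1 and pandas 2.3.3 were used.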

Additional observations from a re-analysis of the deposited data

How the results depend on the processing

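Stromal Vegfc stayed within counting error of its reported level in every one of 60 alternative values, and its ratio of VC to FLOX ran from 0.704 to 0.743. The endothelial level of WT moved to 2.17 CPM with each cell weighted alike, and 59 other alternative values of the endothelial level stayed within its interval. Among the alternative class differences of single genes, 464 kept their direction and side of the threshold, 20 lost a call, 23 gained one and 5 changed sign. The 5 were Flt1 in other endothelial against sinusoidal cells at 0.39 (Stab2 at least 4), 0.18 (at least 3 of 4 arterial genes) and 0.59 (haematopoietic UMIs left out), Nrp1 there at 0.10 (haematopoietic UMIs left out), and Nrp1 in stroma against sinusoids at −0.060 without WT (up to 0.33 without VC); the cause was not tested.

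Of the followed genes, 0 were called in VC stroma with at least 1000 genes and at most 5% mitochondrial UMIs, with the stricter stromal rule, and at 50 CPM. In each of these Kdr fell under the minimum and was no longer measured. Over all genes, 124, 122 and 35 were still called. The ratio of VC to WT for Kdr was 0.230 and 0.309 at the first of these settings and the stricter rule, and of VC to FLOX 0.334 and 0.592. In other endothelial cells Vegfa was the only followed gene called, as lower, with at least 3 of 4 arterial genes or with stromal RNA left out. Leaving out 1 library, genes called ran from 3734 to 5987 in stroma against arterial cells, from 971 to 3366 in arterial against sinusoidal cells and from 2457 to 4818 in other endothelial against sinusoidal cells, each lowest without FLOX. The members called ran from 3 to 7 and from 3 to 6 in the latter contrasts. Fewer genes were also called with stromal RNA left out (1732, arterial) and with haematopoietic UMIs left out (1139, with 2 members, other endothelial), and Stab2 at least 4 gave 3393. Stromal Vegfc shares were 36.6%, 30.3% and 25.5% at 2000 UMIs and 81.8%, 78.6% and 70.8% unthinned, and endothelial ones 0.319% in WT at 2000 UMIs and 1.97%, 0.754% and 0.217% unthinned.

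No paired analysis was possible between genotypes because each is 1 library. Class contrasts already carry the library as a block, and without that block 4 members were called in arterial against sinusoidal cells, where Nrp1 was lost (edgeR adjusted p = 0.05994).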

Other observations

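Outside the niche classes, some of the genes were found in blood cells. In neutrophil-like cells Vegfa came to 46.8, 38.1 and 35.1 CPM by library (WT, FLOX, VC; 136, 72 and 40 UMIs), near its level in sinusoids. Nrp1 stood at 58.9, 84.6 and 133 CPM in monocyte and macrophage-like cells, from 104, 96 and 63 UMIs, against 15.3 to 19.7 in plasma cell-like cells. Vegfb, the ligand with the flattest profile, was at 50.8, 49.0 and 51.3 CPM in erythroid-like cells and at 13.6 to 20.5 in plasma cell-like cells. Barcodes with at least 50 Cxcl12 UMIs that failed the stromal rule (24, 101 and 27) held Kdr at 1206, 767 and 707 CPM beside Vegfc at 99.6, 79.3 and 29.9.

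Stromal cells with at least 5 UMIs of Alpl, an osteoblast lineage gene, numbered 10 in WT, 44 in FLOX and 29 in VC. Vegfc was at 117 CPM in FLOX and 93.1 in VC Alpl-high cells against 214 and 148 in cells with none, and at 255 against 240 in WT. The WT value rests on 10 cells.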
